A study of Mus musculus with 8 samples.

Results

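Hmox1 and the genes of the antioxidant response were followed through 4 states of satellite cells, which are stem cells of muscle. The set was defined by gene symbol and holds 10 genes: Nfe2l2, its inhibitor Keap1, the adaptor Sqstm1, and the targets Slc7a11, Gclc, Gclm, Srxn1, Txnrd1, Hmox1 and Nqo1. All 10 were found among the 24328 symbols of the expression table, and all 10 were among the 12515 that reached 1 FPKM, a fragment count scaled for transcript length and library size, in at least 2 libraries. The cells came from C57BL/6 mice of 2 months and were sorted for Vcam and against CD31, CD45 and Sca-1. PFA-perfused cells (genotype Pax7-nGFP, a nuclear reporter of Pax7) were fixed by perfusing the mouse with paraformaldehyde before the muscle was digested, with a doubled amount of collagenase II and an RNA kit made for fixed tissue. Mice of the PBS-perfused group (Pax7-nGFP) were given buffer in place of the fixative, and those of the unperfused group (wild type) were not perfused. Injury-activated cells (wild type, not perfused) were taken 2.5 days after an injury. Each group has 2 libraries. Whether these are separate animals is not stated. The p-values rest on the spread between libraries alone, pooled for each gene over the 4 groups, and that spread may be technical. In comparisons with PFA-perfused cells the fixation, digestion and RNA kit cannot be told apart, nor can genotype and perfusion between unperfused or injury-activated and perfused cells.

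Cells sense oxidants and electrophiles through a pair of proteins. Keap1 holds the transcription factor Nfe2l2 (Nrf2) at a ubiquitin ligase built on Cul3, so that Nfe2l2 is degraded soon after it is made. When cysteines of Keap1 are modified, Nfe2l2 escapes, pairs with a small Maf protein and binds antioxidant response elements, while Bach1 competes for the same elements. Its targets import cystine, make glutathione, reduce thioredoxin and peroxiredoxin, and break down haem. Much of this control acts on the Nfe2l2 protein, which RNA levels do not show.

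All 8 satellite cell markers examined were detected in the 8 libraries, but they did not move together. In injury-activated against PFA-perfused cells 3 rose and 5 fell. Pax7 was at 328 and 567 FPKM with PFA perfusion, 48.3 and 79.6 with PBS perfusion, 19.8 and 20.4 without perfusion, and 4.59 and 4.40 after injury, while Vcam1, used in the sort, was at 128 and 84.3 FPKM with PFA perfusion, 329 and 389.6 with PBS perfusion, 145 and 96.0 without perfusion, and 241 and 234 after injury. Sdc4 reached 28149 and 40318 FPKM without perfusion beside 419.5 and 239 in fixed cells. Markers of other cells differed between groups as well. Against PFA-perfused cells, of 8 tested endothelial markers 8 rose and 0 fell with PBS perfusion, 0 rose and 3 fell without perfusion and 0 rose and 4 fell after injury. Of 7 tested fibro-adipogenic markers 5 rose and 2 fell, 1 rose and 2 fell, and 4 rose and 2 fell in that order. Of 5 tested myofibre markers 0 rose and 1 fell, 0 rose and 1 fell, and 3 rose and 1 fell, and 4 rose and 0 fell in injury-activated against unperfused cells. Of 6 tested myeloid markers 5 rose and 0 fell, 1 rose and 1 fell, and 6 rose and 0 fell in the same order. Of all tested genes 17.8%, 17.4% and 26.1% rose and 46.2%, 56.3% and 47.3% fell in that order. In injury-activated against unperfused cells these shares were 40.8% and 29.3%. Summed levels of the 8 endothelial markers were 9.70 to 16.4 FPKM with PFA perfusion, 107 to 151 with PBS perfusion, 5.05 to 5.82 without perfusion and 3.67 to 3.81 after injury. Sums of 8 fibro-adipogenic markers were 456 to 831, 225 to 436, 501 to 531 and 72.4 to 82.9 FPKM, and those of 6 myofibre markers 55.7 to 78.4, 37.5 to 57.4, 33.5 to 35.7 and 183 to 226 FPKM. The fibro-adipogenic sum was mostly Dpt with PFA perfusion (633 and 318 FPKM) and without perfusion (474 and 456 FPKM). Dpt was at 69.4 and 259.8 FPKM with PBS perfusion and 5.81 and 5.61 after injury. These sums thus do not follow the counts of fibro-adipogenic markers that rose or fell. The part of these cells in the results was not tested. Total FPKM per library was 461454 to 582336, and the sequencing depth is unknown. In bulk RNA, fewer cells of a type and less RNA per cell cannot be told apart.

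Fold changes are differences of log2(FPKM + 1) ± SE, which understate the changes of low genes. A gene is called at an adjusted p under 0.05 (limma, Benjamini-Hochberg over all tested genes), and rose, fell or changed is written of called genes. The median tested gene differed by -0.50 in PBS-perfused and by -0.81 in unperfused against PFA-perfused cells, and by -0.05 and -0.03 once libraries were scaled by a trimmed mean. With that scaling 3435 genes were called higher and 3484 lower in PBS-perfused cells, where 2225 and 5783 were called without it. For unperfused cells the numbers were 4210 and 4320 with and 2173 and 7043 without scaling.

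Of the 10 genes, Hmox1, Nfe2l2, Srxn1, Txnrd1 and Slc7a11 had their lowest mean in cells fixed inside the animal. Gclc, Gclm and Sqstm1 were lowest in injury-activated, Keap1 in unperfused and Nqo1 in PBS-perfused cells. The shares of all tested genes that were lowest in each group were not computed. In PBS-perfused against PFA-perfused cells 8 rose (Hmox1, Srxn1, Txnrd1, Gclm, Slc7a11, Sqstm1, Gclc and Nfe2l2), against 17.8% of all tested genes. Keap1 fell, as did 46.2% of tested genes, and Nqo1 was not called. Either rescaling of the libraries gave the same counts. The 10 genes and the pathway lists were chosen with earlier results of these data known. Their shares beside those of all genes, here and below, are therefore descriptive. In unperfused against PFA-perfused cells 6 rose (Hmox1, Srxn1, Slc7a11, Txnrd1, Gclm and Gclc; 17.4% of tested genes) and Keap1 fell (56.3%). Trimmed mean scaling gave 8 that rose, and quantile normalization 8. The median change of the 10 genes was 2.70 in PBS-perfused and 1.89 in unperfused cells.

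**Figure D1:**
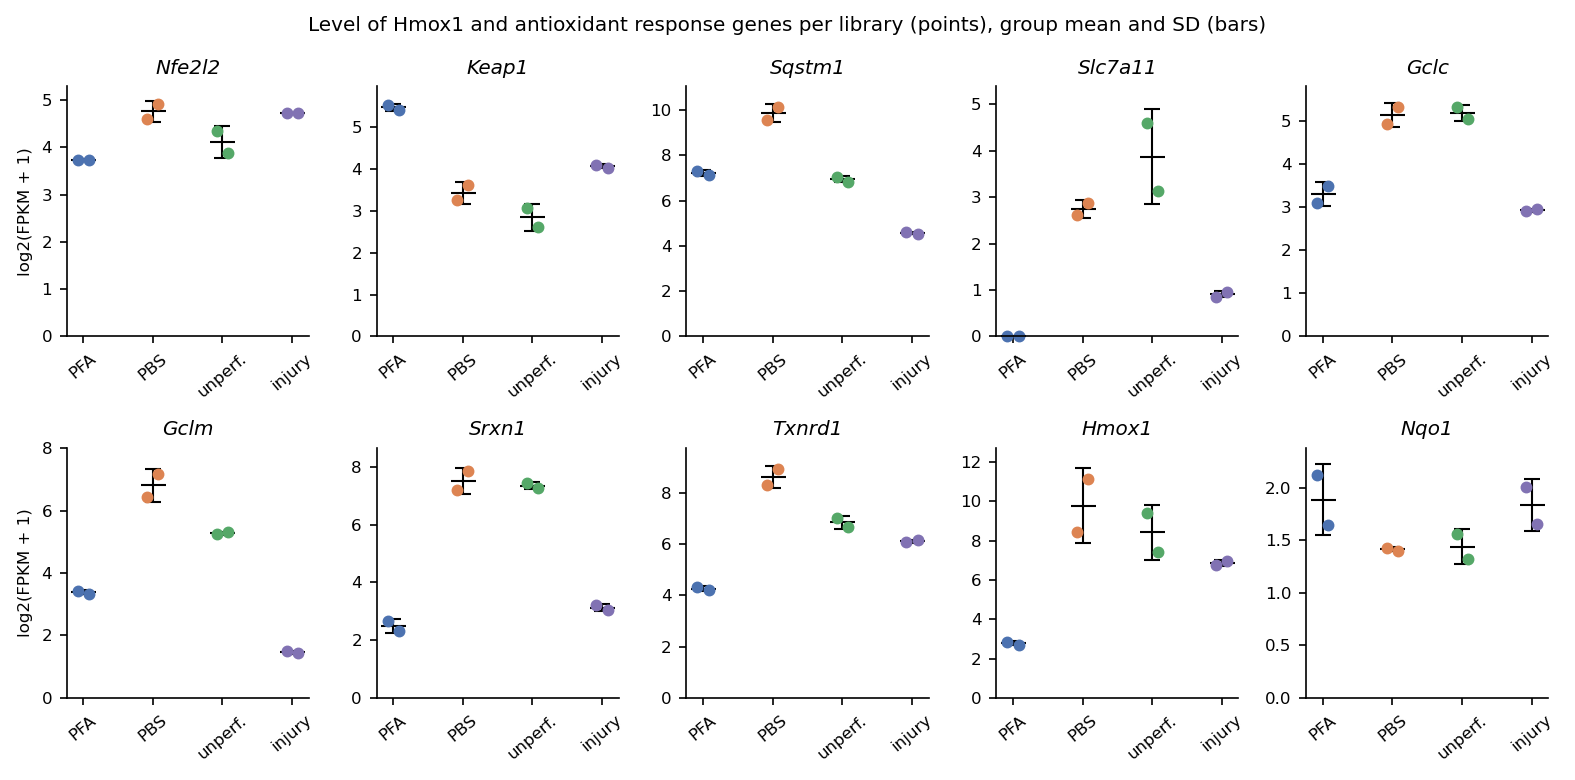
Level of each of the 10 genes as log2(FPKM + 1), vertical axis, in the 2 libraries of each group (points), with group mean and SD (bars, n = 2); unperf. stands for unperfused and injury for injury-activated. Keap1 is highest in the PFA-perfused libraries, Slc7a11 sits at 0 there, and the PBS-perfused points of Hmox1 lie apart at 344 and 2242 FPKM.

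Several of the targets moved together, and their promoter sequence was searched for short motifs. RefSeq windows on GRCm38.p6, from 250 bases before to 50 after an annotated start, were matched by symbol for 8 of the 10 genes, with 10 starts. Hmox1 and Gclc had no entry. The letters searched on both strands were TGACNNNGC, the core of the antioxidant response element, and TGACTCA, a site of AP-1. The letters can overlap each other, and no match in these genes did. Before the start, TGACNNNGC was found at 3 of the 10 starts (Nfe2l2, Gclm and 1 of the 3 of Txnrd1), and TGACTCA at 1 (Srxn1, where it occurs at -102 and -45). Among all 32851 starts of the table, 10.16% held TGACNNNGC and 4.46% held TGACTCA in the same 250 bases. All 4 genes with a match rose in at least 1 unfixed group against PFA-perfused cells. Slc7a11 and Sqstm1 also rose there, with no match before the start, and the other starts of Txnrd1 had none. Keap1, which fell, and Nqo1, which was not called, had no match either. Whether the motifs bear on the rises was not tested. Only the stretches with a match are printed. They run 5′ to 3′ on the strand of the gene, with the matched letters or their reverse complement in capitals. They cover chr2:152105274-152105523 (Srxn1, plus strand), chr3:122245307-122245556 (Gclm, plus strand), chr10:82858956-82859205 (Txnrd1, plus strand) and chr2:75704664-75704913 (Nfe2l2, minus strand).
Srxn1: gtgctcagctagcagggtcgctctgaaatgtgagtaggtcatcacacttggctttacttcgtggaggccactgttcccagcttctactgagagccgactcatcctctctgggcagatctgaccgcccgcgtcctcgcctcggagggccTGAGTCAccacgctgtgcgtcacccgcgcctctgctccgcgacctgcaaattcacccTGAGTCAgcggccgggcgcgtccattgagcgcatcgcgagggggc
Gclm: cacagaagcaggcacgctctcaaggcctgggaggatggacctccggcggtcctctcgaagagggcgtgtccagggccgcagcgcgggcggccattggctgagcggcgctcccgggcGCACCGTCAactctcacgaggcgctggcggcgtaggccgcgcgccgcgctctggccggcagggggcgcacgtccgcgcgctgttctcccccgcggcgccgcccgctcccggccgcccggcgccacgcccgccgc
Txnrd1, second start: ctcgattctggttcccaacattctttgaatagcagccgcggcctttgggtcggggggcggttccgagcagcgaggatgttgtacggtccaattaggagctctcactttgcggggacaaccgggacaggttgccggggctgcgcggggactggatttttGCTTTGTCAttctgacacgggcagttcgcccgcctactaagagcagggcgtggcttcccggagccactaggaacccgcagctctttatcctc
Nfe2l2: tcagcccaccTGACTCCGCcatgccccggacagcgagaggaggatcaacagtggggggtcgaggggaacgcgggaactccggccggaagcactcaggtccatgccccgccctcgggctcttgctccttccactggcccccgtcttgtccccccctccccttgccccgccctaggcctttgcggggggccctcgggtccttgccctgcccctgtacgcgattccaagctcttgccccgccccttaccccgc

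**Figure D2:**
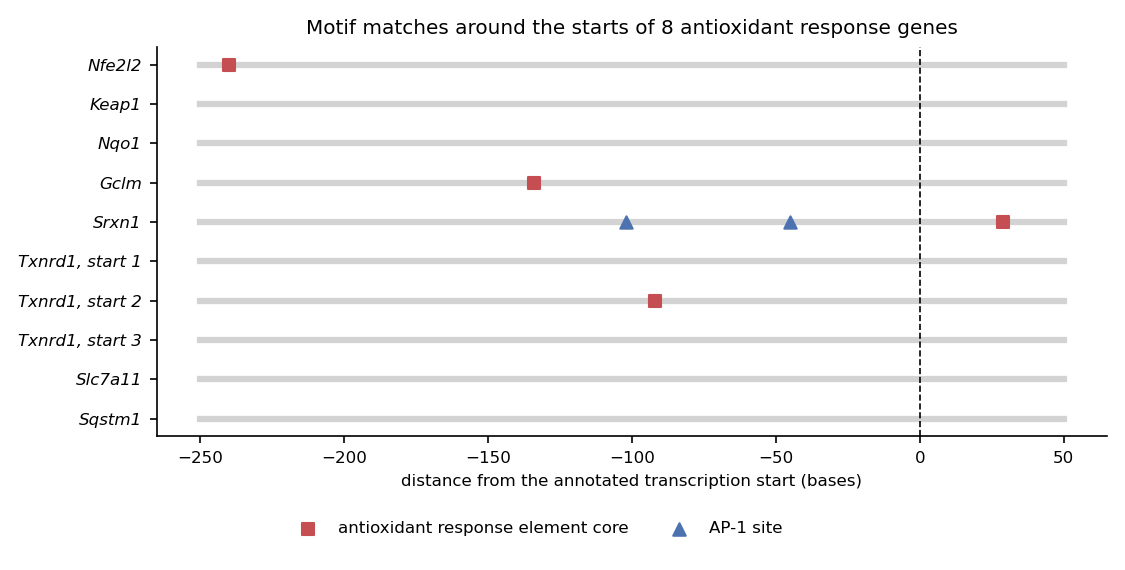
Places of the antioxidant response element core (squares) and of the AP-1 site (triangles) in 10 promoter windows of 8 genes, as distance in bases from the annotated start (dashed line), with grey bars for the window searched. Srxn1 has AP-1 letters at -102 and -45 and the core of the element at 29, after the start.

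Nfe2l2, the transcription factor at the centre of the response, had its lowest RNA level in fixed cells. Its level was 12.4 and 12.2 FPKM with PFA perfusion, 23.4 and 29.2 with PBS perfusion, 19.4 and 13.6 without perfusion, and 25.5 and 25.3 after injury. Both PFA-perfused libraries lay below the other 6, and the injury-activated libraries lay within the range of the PBS-perfused. Nfe2l2 rose by 1.03 ± 0.23 in PBS-perfused (adjusted p = 0.00345) and by 0.99 ± 0.23 in injury-activated cells (adjusted p = 0.00317) against PFA-perfused cells. For unperfused against PFA-perfused cells the difference of 0.38 ± 0.23 was not called (adjusted p = 0.158). A call was made with trimmed mean scaling (1.38), with quantile normalization (1.19) and without unperfused replicate 2 (0.62).

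The smaller steps of Nfe2l2 between unfixed groups did not keep their calls. Unperfused cells were lower than PBS-perfused cells (-0.65 ± 0.23, adjusted p = 0.0375). This call was lost after both rescalings (-0.17 and -0.34), with no filter, in a fit of these groups alone, and without PBS-perfused replicate 2 (-0.50), unperfused replicate 2 (-0.41), or any of the PFA-perfused and injury-activated libraries (-0.65 each time). Injury-activated cells were higher than unperfused cells by 0.61 ± 0.23 (adjusted p = 0.0345). This call was also lost after both rescalings (0.27 and 0.15), without unperfused replicate 2 (0.37), and without any PFA-perfused or injury-activated library (0.61 to 0.62).

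Keap1, the sensor that delivers Nfe2l2 for degradation, was highest in the fixed cells. It stood at 45.3 and 41.9 FPKM with PFA perfusion, 8.52 and 11.2 with PBS perfusion, 7.40 and 5.14 without perfusion, and 16.3 and 15.4 after injury, with no overlap between any pair of groups. It fell against PFA-perfused cells, with changes of -2.05 ± 0.23 (PBS-perfused, adjusted p = 1.0e-04), -2.63 ± 0.23 (unperfused, adjusted p = 9.8e-06) and -1.404 ± 0.23 (injury-activated, adjusted p = 4.1e-04). All 3 falls were called under the 15 alternatives. Injury-activated cells had more Keap1 than unperfused cells (1.23 ± 0.23, adjusted p = 1.0e-03). The rise against PBS-perfused cells (0.64 ± 0.23, adjusted p = 0.0285) was not called without PBS-perfused replicate 1 (0.46) or without injury-activated replicate 1 (0.61) or 2 (0.68). Unperfused and PBS-perfused cells, next to each other in level, did not differ beyond the threshold (-0.59 ± 0.23, adjusted p = 0.0578), though they did without PBS-perfused replicate 1 (-0.77) or unperfused replicate 1 (-0.81).

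Sqstm1 (p62), an autophagy adaptor that can bind Keap1 and is itself a target of Nfe2l2, was highest with PBS perfusion. It stood at 155 and 137 FPKM with PFA perfusion, 758 and 1119 with PBS perfusion, 130.0 and 113 without perfusion, and 23.3 and 22.1 after injury. No groups overlapped, and the injury-activated libraries were the lowest. Sqstm1 rose by 2.65 ± 0.26 in PBS-perfused against PFA-perfused cells (adjusted p = 5.9e-05), 6.42 times in mean FPKM. Unperfused and PFA-perfused cells did not differ beyond the threshold (-0.26 ± 0.26, adjusted p = 0.376), and after trimmed mean scaling the difference turned to 0.81 and was called (adjusted p = 0.0117). Unperfused cells were lower than PBS-perfused cells (-2.91 ± 0.26, adjusted p = 3.1e-05). Injury-activated cells were lower than both unperfused (-2.37 ± 0.26, adjusted p = 3.7e-05) and PFA-perfused cells (-2.63 ± 0.26, adjusted p = 1.7e-05).

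Small Maf partners, Bach rivals and relatives of Nfe2l2 formed a list of 7 tested genes (Maff, Mafg, Mafk, Bach1, Bach2, Nfe2 and Nfe2l1). Of these, 4 rose and 0 fell in PBS-perfused and 6 rose and 0 fell in unperfused against PFA-perfused cells, with medians of 0.90 and 1.17. Of all tested genes 17.8% rose and 46.2% fell in PBS-perfused, and 17.4% rose and 56.3% fell in unperfused cells. Maff, Mafk, Bach1, Bach2, Nfe2 and Nfe2l1 were those that rose in unperfused cells. With trimmed mean scaling these counts became 6 rose and 0 fell, and 7 rose and 0 fell. Maff, a small Maf protein, stood at 3.90 and 2.80 FPKM with PFA perfusion, 38.6 and 49.1 with PBS perfusion, 11.7 and 15.6 without perfusion, and 0.400 and 0.270 after injury. PBS-perfused libraries were highest and injury-activated ones lowest, without overlap. Mafk, a related small Maf, rose by 3.402 ± 0.29 in PBS-perfused and 2.38 ± 0.29 in unperfused cells. Bach1, the haem-sensing repressor of Hmox1, stood at 9.97 and 15.1 FPKM with PFA perfusion, 69.9 and 72.1 with PBS perfusion, 99.3 and 126 without perfusion, and 7.92 and 10.1 after injury, and rose by 2.44 ± 0.25 and 3.09 ± 0.25 in these comparisons. In injury-activated against unperfused cells 0 rose and 6 fell, where 40.8% of all tested genes rose and 29.3% fell. Mafk was at -5.03 ± 0.29, Bach2 at -4.73 ± 0.24 and Bach1 at -3.51 ± 0.25 in this comparison. Bach2, a repressor best known in lymphocytes, was at 50.1 and 34.8 FPKM without perfusion and 0.844 and 0.399 after injury.

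**Figure D3:**
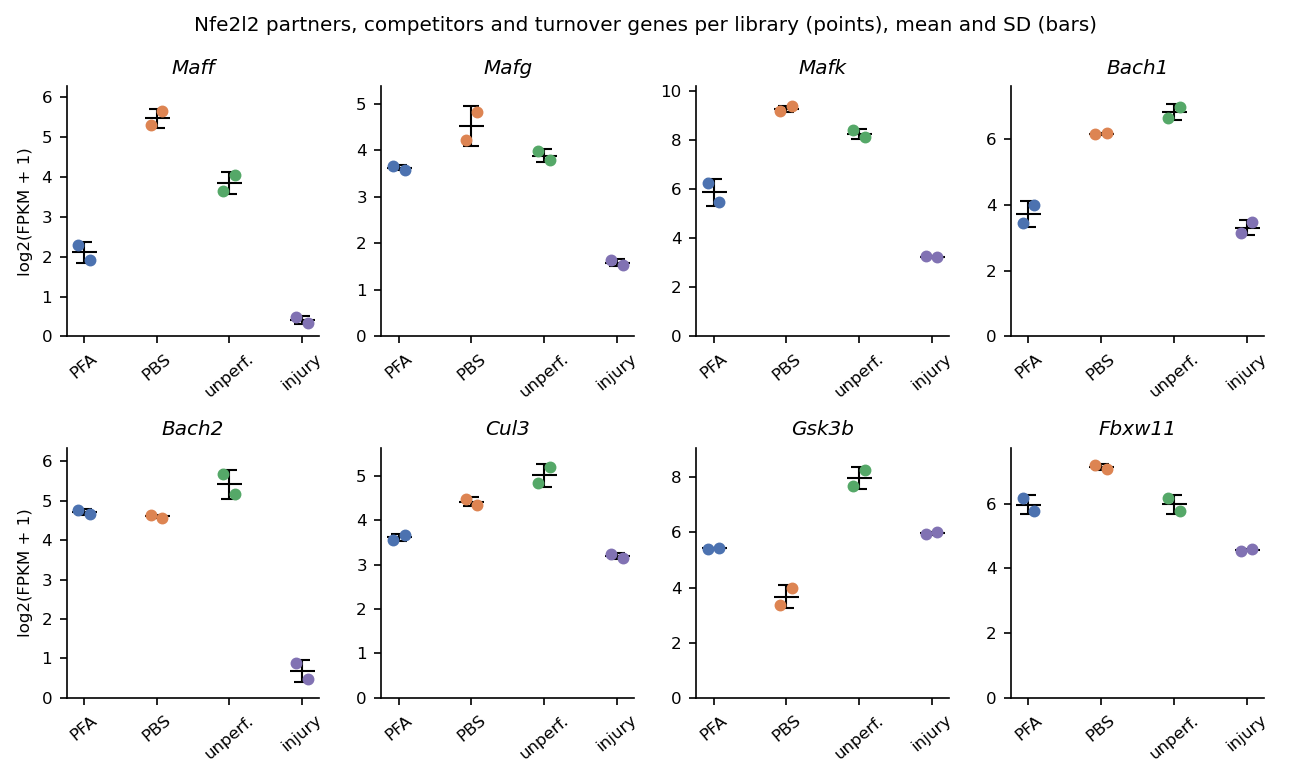
Level as log2(FPKM + 1) in the 2 libraries of each group (points) with mean and SD (bars, n = 2) for 3 small Maf genes, 2 Bach genes and 3 genes of Nfe2l2 turnover. Maff and Mafk are highest with PBS perfusion, Bach1 and Gsk3b without perfusion, and the Maf genes and Bach2 are lowest after injury.

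Of 9 genes of the Keap1 ligase and other routes of Nfe2l2 turnover, 3 rose and 1 fell in PBS-perfused against PFA-perfused cells. Of all tested genes 17.8% rose and 46.2% fell there. In unperfused against PFA-perfused cells 2 rose and 4 fell, near the shares of all tested genes (17.4% and 56.3%). With trimmed mean scaling these counts became 5 rose and 1 fell, and 5 rose and 0 fell. Cul3, the scaffold that Keap1 docks on, rose by 0.79 ± 0.20 and 1.39 ± 0.20 in these comparisons. Gsk3b, a kinase that marks Nfe2l2 for a ligase other than that of Keap1, was at 41.5 and 42.0 FPKM with PFA perfusion, 9.33 and 14.8 with PBS perfusion, 204 and 308 without perfusion, and 60.2 and 63.8 after injury. It fell by 1.75 ± 0.28 in PBS-perfused cells on the log2 scale and rose by 2.56 ± 0.28 in unperfused cells. The ligase adaptor Fbxw11 rose by 1.17 ± 0.24 in PBS-perfused cells.

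Glutathione synthesis begins with cystine. Slc7a11, the light chain of the cystine importer, was listed at 0 in both fixed libraries, and stood at 5.09 and 6.35 FPKM with PBS perfusion, 23.2 and 7.84 without perfusion and 0.814 and 0.939 after injury. It was called higher in PBS-perfused (adjusted p = 3.2e-04) and unperfused cells (adjusted p = 2.1e-05) than in PFA-perfused cells, and no fold is given against libraries at 0. Slc7a11 reached 1 FPKM only in PBS-perfused and unperfused libraries, so it passed the filter through the groups where it was called higher. Of the 10 genes it alone was called higher in unperfused than in PBS-perfused cells (1.13 ± 0.38, adjusted p = 0.0361). This call was lost without unperfused replicate 1 (0.40, adjusted p = 0.137), without PBS-perfused replicate 1 (0.99) or 2 (1.26), and with no filter. Injury-activated cells were lower than unperfused (-2.96 ± 0.38, adjusted p = 1.1e-04) and PBS-perfused cells (-1.83 ± 0.38, adjusted p = 0.00203). Against PFA-perfused cells their level was not called (adjusted p = 0.0573), but it was after both rescalings, with a pseudocount of 0.1, with a filter of 5 FPKM, and without unperfused replicate 1 or 2.

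Slc3a2, the heavy chain that Slc7a11 shares with other amino acid transporters, stood at 46.5 and 66.7 FPKM with PFA perfusion, 223 and 230.2 with PBS perfusion, 55.7 and 45.4 without perfusion, and 18.1 and 17.2 after injury. It rose by 2.00 ± 0.24 in PBS-perfused against PFA-perfused cells and was lower in unperfused than in PBS-perfused cells (-2.15 ± 0.24).

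Gclc and Gclm encode the catalytic and the modifier subunit of glutamate-cysteine ligase, the rate-limiting enzyme of glutathione synthesis. Gclc was at 7.56 and 10.2 FPKM with PFA perfusion, 29.6 and 39.1 with PBS perfusion, 38.7 and 32.0 without perfusion, and 6.45 and 6.72 after injury. The PBS-perfused and unperfused ranges overlapped, and both lay above the other groups. Gclm was at 9.74 and 9.09 FPKM with PFA perfusion, 84.9 and 144 with PBS perfusion, 36.7 and 38.3 without perfusion, and 1.81 and 1.68 after injury, with no overlap between groups. In PBS-perfused against PFA-perfused cells Gclc rose by 1.84 ± 0.23 (adjusted p = 1.8e-04) and Gclm by 3.42 ± 0.26 (adjusted p = 2.1e-05). In unperfused cells Gclc rose by 1.89 ± 0.23 (adjusted p = 7.2e-05) and Gclm by 1.89 ± 0.26 (adjusted p = 1.3e-04). After injury Gclm was below its level in fixed cells (-1.92 ± 0.26, adjusted p = 1.2e-04), while Gclc was not called (-0.37 ± 0.23, adjusted p = 0.174) and turned to 0.25 and 0.26 after the rescalings. Both were lower than in unperfused cells, Gclc at -2.26 ± 0.23 and Gclm at -3.81 ± 0.26 (adjusted p = 2.6e-05 and 2.7e-06). On the FPKM scale, which is per length, mean levels of Gclm and Gclc were 115 and 34.3 with PBS perfusion and 1.75 and 6.59 after injury.

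Srxn1, sulfiredoxin, which repairs over-oxidised peroxiredoxins, split the libraries into a high and a low set. It stood at 5.36 and 4.02 FPKM with PFA perfusion, 146 and 228 with PBS perfusion, 170.4 and 151 without perfusion, and 8.32 and 7.18 after injury. The PBS-perfused and unperfused ranges overlapped and did not differ beyond the threshold (-0.18 ± 0.26, adjusted p = 0.586), with a sign that turned after trimmed mean scaling (0.33) and without PBS-perfused replicate 2 (0.14). Against PFA-perfused cells Srxn1 rose by 5.02 ± 0.26 with PBS perfusion (adjusted p = 5.5e-06) and 4.84 ± 0.26 without perfusion (adjusted p = 1.1e-06), 39.8 and 34.3 times in mean FPKM. Injury-activated cells were lower than unperfused cells (-4.21 ± 0.26, adjusted p = 1.8e-06). Between injury-activated and PFA-perfused cells the difference of 0.63 ± 0.26 missed the threshold (adjusted p = 0.0522). It was called after both rescalings (1.21 and 1.32), with a pseudocount of 0.1 (0.72), in a fit of these groups alone, and without PBS-perfused replicate 1 or 2 (0.63 in these).

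Txnrd1, the cytosolic thioredoxin reductase, stayed above its fixed level after injury. It was at 19.2 and 17.4 FPKM with PFA perfusion, 318 and 489.5 with PBS perfusion, 131 and 101 without perfusion, and 66.5 and 70.1 after injury. No groups overlapped. Txnrd1 rose by 4.36 ± 0.27 (PBS-perfused, adjusted p = 8.7e-06), 2.59 ± 0.27 (unperfused, adjusted p = 2.5e-05) and 1.84 ± 0.27 (injury-activated, adjusted p = 2.0e-04) against PFA-perfused cells. Unperfused cells were lower than PBS-perfused cells (-1.77 ± 0.27, adjusted p = 6.0e-04). The step from unperfused to injury-activated cells (-0.74 ± 0.27, adjusted p = 0.0311) was not called without unperfused replicate 1 (-0.56), without injury-activated replicate 1 (-0.71) or 2 (-0.78), or with no filter.

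Hmox1, haem oxygenase, which cleaves haem to biliverdin, iron and carbon monoxide, differed most of the 10 genes between PBS-perfused and fixed cells. Its level was 6.29 and 5.51 FPKM with PFA perfusion, 344 and 2242 with PBS perfusion, 687 and 172 without perfusion, and 107 and 124 after injury. All 6 unfixed libraries lay above both fixed ones, and the PBS-perfused and unperfused ranges overlapped. Against PFA-perfused cells Hmox1 rose by 6.99 ± 0.82 (PBS-perfused, adjusted p = 1.3e-04), 5.65 ± 0.82 (unperfused, adjusted p = 2.1e-04) and 4.08 ± 0.82 (injury-activated, adjusted p = 0.00156). All 3 rises were called under the 15 alternatives. In mean FPKM the injury-activated cells were 19.6 times higher than the fixed cells.

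Libraries of 1 group differed more for Hmox1 than for most genes. The ratio of the PBS-perfused libraries was 6.53, reached by 0.141% of 4977 genes whose mean there was 10 FPKM or more (median ratio 1.29). For unperfused cells the ratio was 3.99, reached by 0.237% of 4223 genes. In PFA-perfused and injury-activated cells it was 1.14 and 1.16. Because the fit pools the groups, the spread of the PBS-perfused and unperfused libraries enters the SE of every comparison of Hmox1. The order among unfixed groups depended on these libraries. Unperfused and PBS-perfused cells differed by -1.35 ± 0.82 (adjusted p = 0.200), by -2.70 with a call without PBS-perfused replicate 1, and by 0.0027 without replicate 2. Injury-activated and unperfused cells differed by -1.57 ± 0.82 (adjusted p = 0.117), which was called after quantile normalization (-1.98), without PBS-perfused replicate 1 or 2 (-1.57) and without unperfused replicate 2 (-2.56). Injury-activated cells were lower than PBS-perfused cells (-2.91 ± 0.82, adjusted p = 0.0101), a call lost without PBS-perfused replicate 2 (-1.56, adjusted p = 0.0759) and with no filter (adjusted p = 0.0596).

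Macrophages and the clearance of red cells are known settings of Hmox1 expression, so markers of both were set beside it. Summed levels of 8 myeloid markers were 7.48 and 7.37 FPKM with PFA perfusion, 44.6 and 42.2 with PBS perfusion, 37.8 and 26.8 without perfusion and 64.2 and 71.5 after injury. In unperfused libraries the sum was mostly Cd68, at 32.1 and 23.0 FPKM, while Lyz2 was at 0.390 and 0.320 there, beside 1.86 and 1.88 with PFA perfusion, 13.4 and 13.3 with PBS perfusion and 42.9 and 44.0 after injury. Of the 6 tested myeloid markers 1 rose and 4 fell in unperfused against PBS-perfused cells, where 13.1% of all tested genes rose and 36.5% fell. The macrophage marker Adgre1 was at 0 in both unperfused libraries and at 1.67 and 2.00 FPKM after injury. PBS-perfused replicates 1 and 2, which differ in Hmox1, had Adgre1 at 0.0163 and 0.177 FPKM and Csf1r at 1.49 and 3.45. In them Cd68 was at 5.77 and 11.6, Tyrobp at 0.121 and 0.344 and Cd74 at 23.1 and 12.7. Lyz2 was at 13.4 and 13.3, Fcer1g at 0.601 and 0.568 and Ptprc at 0.119 and 0.0805. The 8 markers thus did not move together between these replicates. Summed levels of 6 erythroid markers were 78.3 and 0.416 FPKM with PFA perfusion, 73.5 and 72.5 with PBS perfusion, 7.53 and 6.16 without perfusion and 8.81 and 5.56 after injury. The part of these cells in the level of Hmox1 was not tested.

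Nqo1, a quinone reductase often used as a readout of Nfe2l2, stayed low. It was at 3.36 and 2.14 FPKM with PFA perfusion, 1.69 and 1.64 with PBS perfusion, 1.95 and 1.498 without perfusion, and 3.03 and 2.16 after injury. No comparison of Nqo1 was called, with differences from -0.47 ± 0.22 to 0.42 ± 0.22. The direction depended on scaling and on single libraries. Against PFA-perfused cells the unperfused difference of -0.45 ± 0.22 became 0.29 with trimmed mean scaling and 0.52 with quantile normalization, where it was called, and it was called in the opposite direction without PFA-perfused replicate 2 (-0.69). The PBS-perfused difference was called without the same library (-0.71) and was 0.06 after quantile normalization. Injury-activated cells were called higher than PBS-perfused cells after both rescalings (0.52 and 0.71), and higher than PFA-perfused cells after quantile normalization (0.77).

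**Figure D4:**
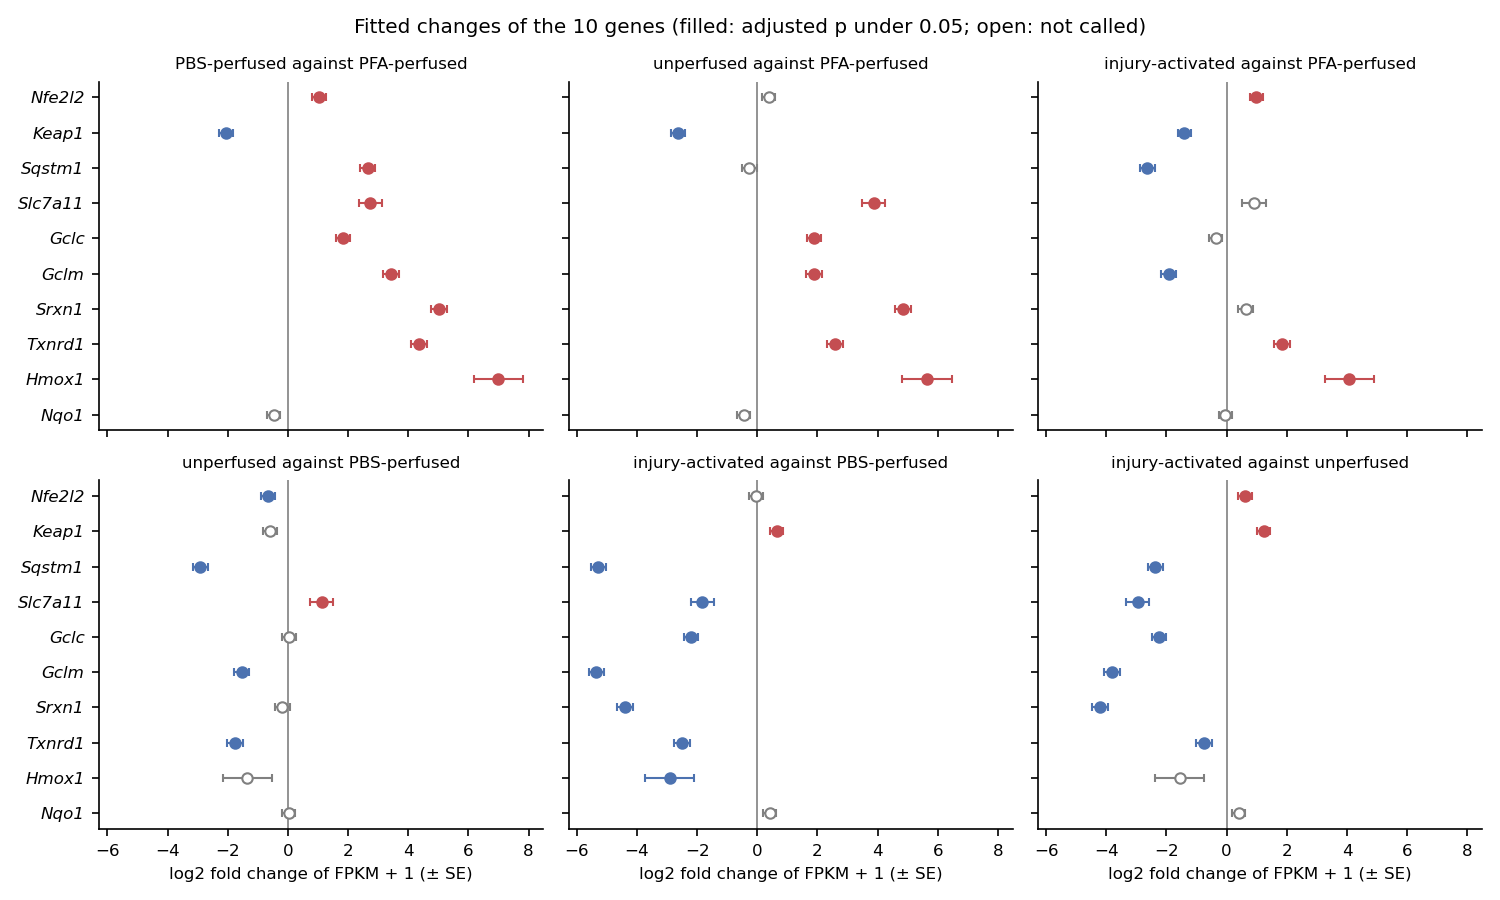
Fitted log2 fold change of FPKM + 1 (points, horizontal axis) with SE (bars) of the 10 genes in the 6 comparisons of groups; filled red points were called higher, filled blue points lower, and open grey points were not called. Against PFA-perfused cells Hmox1, Srxn1 and Txnrd1 lie far to the right and Keap1 to the left in the PBS-perfused and unperfused panels.

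In comparisons between unfixed groups the targets were mostly lower after injury. In unperfused against PBS-perfused cells 4 of the 10 genes fell (Sqstm1, Txnrd1, Gclm and Nfe2l2; 36.5% of tested genes) and 1 rose (13.1%), so that the share that fell was near that of all genes. The number that fell was 6 without PBS-perfused replicate 1. In injury-activated against unperfused cells 6 fell (Srxn1, Gclm, Slc7a11, Sqstm1, Gclc and Txnrd1; 29.3%) and 2 rose (Keap1 and Nfe2l2; 40.8%). Their median was -1.91, and that of all tested genes was 0.17. In injury-activated against PBS-perfused cells 7 fell (38.8%) and Keap1 rose (34.4%), with a median of -2.36 beside -0.11 for all genes. In injury-activated against PFA-perfused cells 3 rose (Hmox1, Txnrd1 and Nfe2l2; 26.1%) and 3 fell (Sqstm1, Gclm and Keap1; 47.3%). After the rescalings 5 and 6 rose. The comparisons share libraries and are not independent of each other.

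For the other pathway lists the shares of all tested genes were 17.8% higher and 46.2% lower in PBS-perfused, and 17.4% higher and 56.3% lower in unperfused against PFA-perfused cells, and 40.8% higher and 29.3% lower in injury-activated against unperfused cells. Of 21 other glutathione genes tested, 4 rose and 9 fell in PBS-perfused and 3 rose and 13 fell in unperfused against PFA-perfused cells, with medians of -0.74 and -1.03 and with shares near those of all tested genes. With trimmed mean scaling these counts became 6 rose and 4 fell, and 7 rose and 7 fell. Chac1, which degrades glutathione, stood at 0.258 and 0.0355 FPKM with PFA perfusion, 40.4 and 55.9 with PBS perfusion, 40.5 and 30.2 without perfusion, and 4.72 and 5.22 after injury, and rose by 5.41 ± 0.24 in PBS-perfused and 4.98 ± 0.24 in unperfused cells. Gstm1, a glutathione transferase, fell by 4.30 ± 0.39 on the log2 scale in unperfused cells. In injury-activated against unperfused cells 12 rose and 5 fell, with the transferase Gstp1 at 3.37 ± 0.42 and Gpx3, the secreted peroxidase, at -4.90 ± 0.44.

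Among 15 thioredoxin and peroxiredoxin genes, 2 rose and 8 fell in PBS-perfused and 1 rose and 12 fell in unperfused against PFA-perfused cells, beside 46.2% and 56.3% of all tested genes that fell. With trimmed mean scaling these counts became 4 rose and 3 fell, and 2 rose and 9 fell. Sesn2, a stress-induced sestrin, rose by 3.15 ± 0.25 in PBS-perfused cells, and the related Sesn1 fell by 2.00 ± 0.24 on the log2 scale. Txn1, the substrate of Txnrd1, stood at 48.9 and 47.5 FPKM with PFA perfusion, 48.0 and 94.2 with PBS perfusion, 13.0 and 6.94 without perfusion, and 124 and 127 after injury, and was lowest without perfusion (-2.22 ± 0.35 against PFA-perfused cells). In injury-activated against unperfused cells 10 rose and 4 fell, among them Txn1 (3.59 ± 0.35) and the mitochondrial peroxiredoxin Prdx3 (3.801 ± 0.30).

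The NADPH that thioredoxin and glutathione reductases consume comes in large part from the pentose phosphate route. Of 10 NADPH supply genes, 1 rose and 7 fell in PBS-perfused against PFA-perfused cells, where 17.8% of all tested genes rose and 46.2% fell, and 1 rose and 3 fell after trimmed mean scaling. Mthfd2, a mitochondrial folate enzyme, rose by 3.67 ± 0.31. In injury-activated against unperfused cells 10 rose and 0 fell, where 40.8% of all tested genes rose, and 9 rose and 0 fell after trimmed mean scaling. G6pdx, the first enzyme of the pentose phosphate route, stood at 10.001 and 12.3 FPKM with PFA perfusion, 3.56 and 6.19 with PBS perfusion, 5.04 and 3.48 without perfusion, and 58.9 and 50.1 after injury. Both injury-activated libraries lay above all others, and the gene rose by 3.41 ± 0.27 against unperfused cells, as did the next dehydrogenase Pgd (3.16 ± 0.35).

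Of 16 tested haem and iron genes, 4 rose and 5 fell in PBS-perfused and 2 rose and 7 fell in unperfused against PFA-perfused cells, beside 17.8% and 17.4% of all tested genes that rose and 46.2% and 56.3% that fell. With trimmed mean scaling these counts became 5 rose and 4 fell, and 7 rose and 5 fell. Hmox2, the constitutive haem oxygenase, stood at 41.0 and 43.2 FPKM with PFA perfusion, 13.2 and 9.55 with PBS perfusion, 4.97 and 3.84 without perfusion, and 40.5 and 42.4 after injury. Against PFA-perfused cells it fell in PBS-perfused (-1.82 ± 0.22) and unperfused cells (-3.002 ± 0.22), and was not called in injury-activated cells (-0.02 ± 0.22, adjusted p = 0.933). Ftl1, the ferritin light chain, rose by 2.04 ± 0.35 in PBS-perfused and 2.33 ± 0.35 in injury-activated against fixed cells. Without perfusion Ftl1 was at 658 and 362 FPKM, beside 406 and 480 in fixed cells. The heavy chain Fth1 was lower in unperfused than in fixed cells (-2.18 ± 0.43). Its mean was 2802 FPKM with PBS perfusion and 2822 in fixed cells. In injury-activated against unperfused cells 11 rose and 1 fell, among them Urod, an enzyme of haem synthesis (3.21 ± 0.26), and Tfrc, the transferrin receptor (3.06 ± 0.30).

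Of 7 tested superoxide and peroxide genes, 1 rose and 5 fell in PBS-perfused and 2 rose and 5 fell in unperfused against PFA-perfused cells, where 46.2% and 56.3% of all tested genes fell. With trimmed mean scaling these counts became 1 rose and 2 fell, and 2 rose and 4 fell. Sod2, the mitochondrial dismutase, rose by 2.48 ± 0.30 in PBS-perfused cells. It was at 17.5 and 34.7 FPKM without perfusion beside 4.52 and 3.56 in fixed cells. The cytosolic Sod1 rose by 3.31 ± 0.26 in unperfused cells, where it was at 538 and 451 FPKM beside 45.6 and 52.1 in fixed cells. With PBS perfusion Sod1 was below its fixed level, at 20.2 and 31.0 FPKM. Of 15 tested genes for detoxification and other Nfe2l2 targets, 4 rose and 11 fell in PBS-perfused and 2 rose and 10 fell in unperfused cells, against the same shares of all genes. With trimmed mean scaling 4 rose and 8 fell, and 5 rose and 8 fell. Osgin1, an oxidative stress-induced growth inhibitor, rose by 2.59 ± 0.35 in PBS-perfused cells, and Cbr1, a carbonyl reductase, fell by 2.56 ± 0.22 on the log2 scale. Akr1b8, an aldo-keto reductase, was at 162 and 148 FPKM after injury and 3.94 and 2.18 without perfusion (5.29 ± 0.30).

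**Figure D5:**
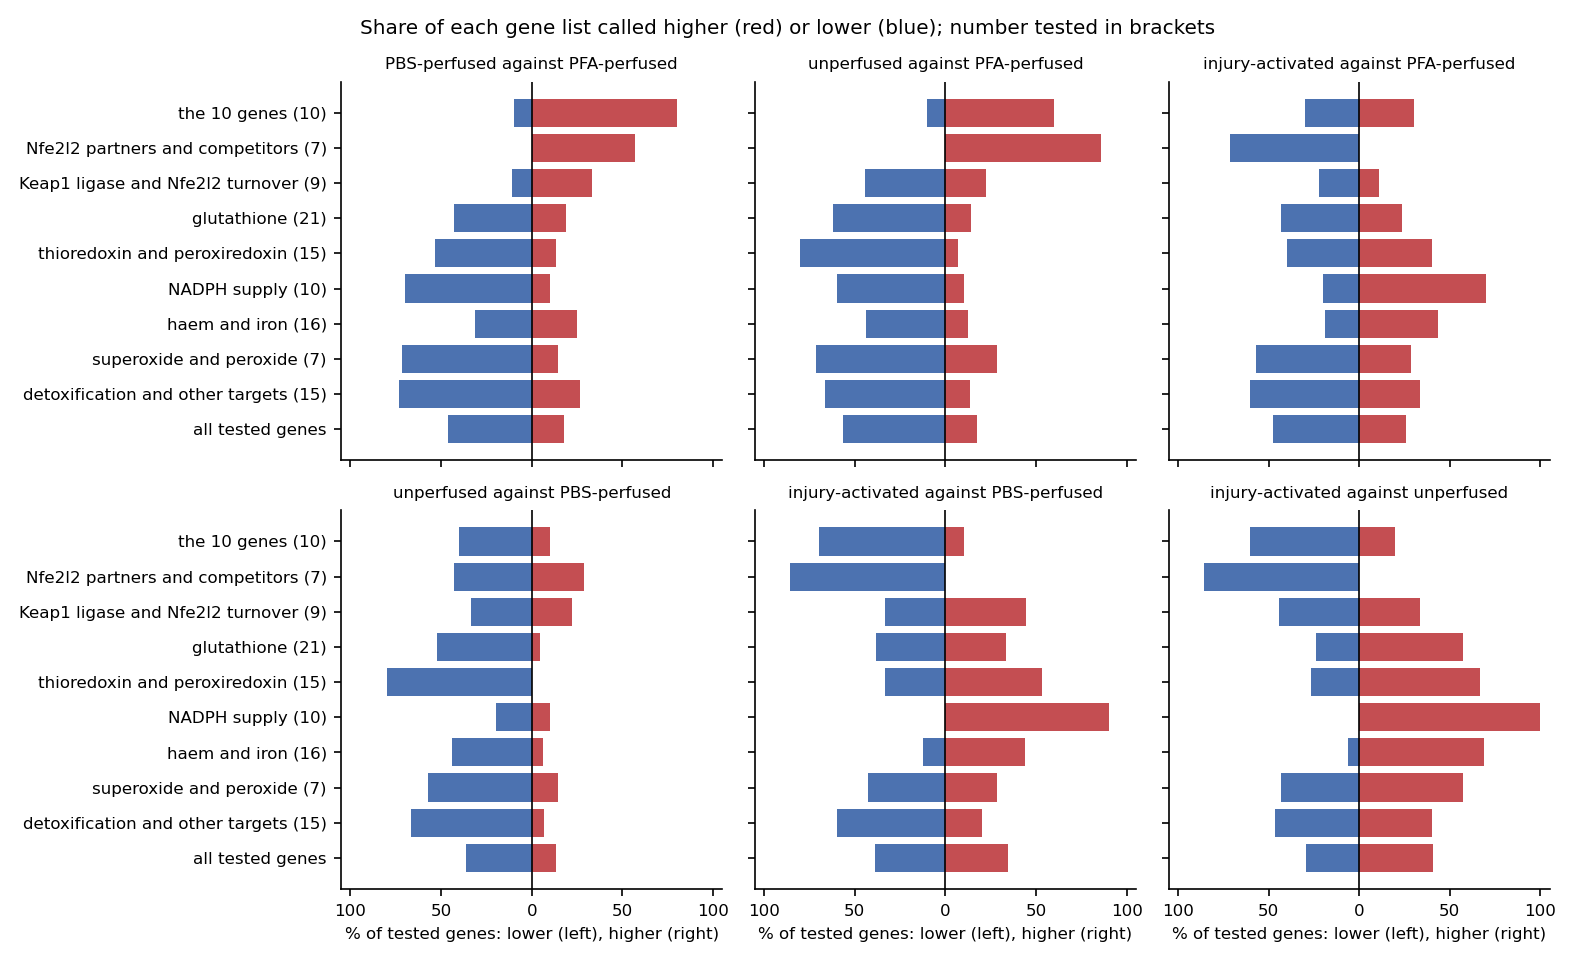
Share of the tested genes of each list, and of all tested genes, called higher (red, to the right) or lower (blue, to the left) in the 6 comparisons, in percent, with the number tested in brackets. The 10 genes and the Nfe2l2 partners lie mostly to the right in the PBS-perfused and unperfused panels against PFA-perfused cells, and the NADPH list lies wholly to the right in injury-activated against unperfused cells.

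Across the 8 libraries the 10 genes shared patterns to different degrees, given here as Pearson's r of log2(FPKM + 1), a description of libraries that also share their groups. Hmox1 had r = 0.95 with Txnrd1, 0.84 with Srxn1, 0.76 with Nfe2l2, 0.38 with Sqstm1 and -0.82 with Keap1. Srxn1 had r = 0.96 with Gclc and 0.33 with Nfe2l2, and Gclm had r = 0.92 with Sqstm1. Among 7722 tested genes with a highest group mean of at least 10 FPKM, those most like Hmox1 were Cxcl2 (0.984), Gnl3 (0.980), Il4ra (0.975), Mast4 (0.973) and Sertad1 (0.967). Cxcl2, a chemokine, was at 61.8 and 406 FPKM in the PBS-perfused libraries and listed at 0 in both fixed ones. Those most like Srxn1 were Myc (0.996), Mpp5 (0.993), Zbtb10 (0.992), Tgif1 (0.991) and Fas (0.989). Myc, a transcription factor that promotes growth, stood at 9.33 and 8.04 FPKM with PFA perfusion, 124 and 134 with PBS perfusion, 96.4 and 102 without perfusion, and 11.9 and 9.61 after injury.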

How the data were processed

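RNA of 8 satellite cell libraries, 4 groups of 2, was analysed from 1 table deposited by the authors. Its header gives no unit. The numbers the authors deposited are read here as FPKM, from their decimals and unequal totals and the named tools. Per the submitters' processing notes, STAR 2.5.3a, StringTie 1.3.3, R 3.4.1 and the mm9 build were used, with roles not given in the sources used here. The deposited values were converted to log2(FPKM + 1) and not rescaled. A symbol was tested if at least 2 libraries reached 1 FPKM (12515 symbols; 3828 were at 0 throughout). limma 3.58.1 (R 4.3.3) fitted group means over the 8 libraries, with a variance trend and no covariate, in 6 two-sided comparisons, each adjusted by Benjamini-Hochberg over the tested symbols. The code was checked on simulated data.

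The 10 genes, the 8 pathway lists (107 genes, 1 of them not among the table's symbols) and the marker lists were chosen with earlier results of these data known. Pathway genes are named if they were among the 3 called genes with the greatest change of their list in a comparison, or were 1 of 14 anchors, such as Bach1, Cul3, Txn1 and Hmox2; the 5 genes most like Hmox1 and Srxn1 in Pearson's r are named too. Alternatives were a replicate block, a fit of the compared groups alone, no filter, a stricter filter (5 FPKM), a smaller pseudocount (0.1), trimmed mean scaling (trims of 0.3 and 0.05 against the mean log level), quantile normalization, and leaving out each library, 15 in all. Promoters come from RefSeq on GRCm38.p6, not the build of the reads. Figures were drawn with matplotlib 3.10.9.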

Additional observations from a re-analysis of the deposited data

How the results depend on the processing

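Of 893 repeats of the 60 differences of the 10 genes, 819 kept their direction and side of the threshold. With the same sign, 30 lost the call and 26 gained one. Another 18 changed sign, all of them differences that were not called at first. Those called with the changed sign were Sqstm1 in unperfused against PFA-perfused cells after trimmed mean scaling, and Nqo1 after quantile normalization. For Nqo1 this held in unperfused and in injury-activated against PFA-perfused cells. After trimmed mean scaling and quantile normalization, Gclc turned to 0.255 and 0.258 and Nqo1 to 0.443 and 0.770 in injury-activated against PFA-perfused cells, and Nqo1 to 0.286 and 0.519 in unperfused against PFA-perfused cells. Trimmed mean scaling turned Nfe2l2 to 0.0993 in injury-activated and Srxn1 to 0.328 in unperfused against PBS-perfused cells, and Sqstm1 to 0.812 in unperfused against PFA-perfused cells. Quantile normalization turned Nqo1 to 0.0580 in PBS-perfused against PFA-perfused cells. Outside the 10 genes, it turned Btrc, a ligase adaptor called lower in unperfused against PFA-perfused cells at first, to 0.124 without a call. With each library left out, unperfused against PBS-perfused differences ranged from -0.146 to 0.245 for Gclc, -2.70 to 0.00270 for Hmox1, -0.0949 to 0.143 for Nqo1 and -0.501 to 0.138 for Srxn1. Ranges were -0.194 to 0.115 for Nfe2l2 in injury-activated against PBS-perfused and -0.291 to 0.185 for Nqo1 in injury-activated against PFA-perfused cells. The cause of these turns was not tested.

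Of the 10 genes, the number called higher in injury-activated against PBS-perfused cells was 2 with trimmed mean scaling and 2 with quantile normalization, 1 and 1 against unperfused cells, and 5 and 6 against PFA-perfused cells, where a pseudocount of 0.1 gave 5. With no filter 0 rose in unperfused against PBS-perfused cells by limma. With each library left out, the number higher was 0 to 1 in injury-activated against PBS-perfused, 1 to 2 in injury-activated against unperfused and 0 to 1 in unperfused against PBS-perfused cells. The number lower was 1 to 2 in PBS-perfused and 1 to 2 in unperfused against PFA-perfused cells, and 3 to 6 in unperfused against PBS-perfused cells. Over all genes, trimmed mean scaling gave 2912 higher and 3021 lower in unperfused against PBS-perfused cells (1643 and 4562 without it), and 4824 and 4332 in injury-activated against PFA-perfused cells (3272 and 5925 without it). Deviations of libraries with the same replicate number correlated at -0.0467 to 0.117, so the numbers were not taken to pair libraries, and a fit with a replicate block gave the same counts of the 10 genes in all 6 comparisons, for example 8 higher and 1 lower in PBS-perfused against PFA-perfused cells. With 2 libraries a group and an unknown depth, small steps such as those of Nfe2l2 and Nqo1 are not settled.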
